A study of Mus with 6 samples.

Results

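The mitochondrial genome of the mouse encodes its own ribosomal RNAs, transfer RNAs and a small set of respiratory chain and ATP synthase subunits, and it was examined here in livers of mice with alcoholic steatohepatitis (ASH, fatty liver with inflammation after ethanol). All genes placed on the mitochondrial chromosome in mm10 coordinates were taken as members: 13 protein genes, 2 rRNA genes and 22 tRNA genes, 37 of the 48882 genes listed. In the deposited table only the 2 rRNA genes carry the prefix mt- (mt-Rnr1 and mt-Rnr2); the other 35 appear under their RefSeq symbols (ND1 for mt-Nd1, COX1 for mt-Co1, TrnP for mt-Tp, and so on), and these symbols are used below. All 37 stood at the position that RefSeq gives for GRCm38.p6. Liver RNA came from 3 samples of Fabp4 knockout mice (FABP4-/-) and 3 of wild type littermates, and mice of both groups had received a Lieber-DeCarli liquid diet with ethanol for 8 weeks and 1 ethanol binge. Fabp4 codes for a lipid chaperone found mainly in fat cells, macrophages and capillaries. The study's question was how its absence alters the liver under ethanol, and unexposed livers were not analysed here. The sources used here do not give age, strain or the kind of Fabp4 allele.

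Both strands of mitochondrial DNA are transcribed as long precursors that are cut, largely at the tRNAs that lie between the other genes, into separate rRNAs, mRNAs and tRNAs. Most protein genes, both rRNAs and most tRNAs are read from the heavy-strand promoter, while ND6 and the remaining tRNAs lie on the opposite strand. The proteins are subunits of complex I (the ND genes), complex III (CYTB), complex IV (COX1 to COX3) and ATP synthase (ATP6 and ATP8), each of which also needs many subunits encoded in the nucleus. Hepatocytes are rich in mitochondria, and ethanol oxidation feeds NADH into their respiratory chain.

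Values are named TPM (transcript abundances that allow for gene length), so that levels of different genes can be set side by side. TPM are scaled to a common total, but here the library totals ran from 983800 to 1018120 and the values look quantile normalized. How many reads stand behind a value is unknown, since TPM hides depth, and counting intervals are not given. The liver label was checked against 12 hepatocyte markers, whose summed level lay between 29400.5 and 37052 TPM in the 6 libraries. Fabp4 levels in wild type were 8.15 to 19.96 TPM, with no value in any knockout library. It was the only gene of 14155 tested that passed the threshold (limma, Benjamini-Hochberg adjusted p = 0.0168), 0.00706% of the genes tested. Wild type replicate 2 was the library least like the others (mean Pearson r across genes with the other libraries 0.974, against 0.979 to 0.980 for the rest), and without it the count of mitochondrial genes past the threshold was 0, as with it.

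Of the 37 mitochondrial genes, 16 had a value in all 6 libraries, 3 had a value in some and 18 had a value in none. All 13 protein genes and both rRNAs were among the 16, and the remaining member was the proline tRNA gene TrnP. Together the 37 genes made up 12.2% to 14.02% of each library's TPM. Weighted by gene length, which brings TPM closer to a share of sequenced bases, they made up 7.42% to 8.47%.

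**Figure D1:**
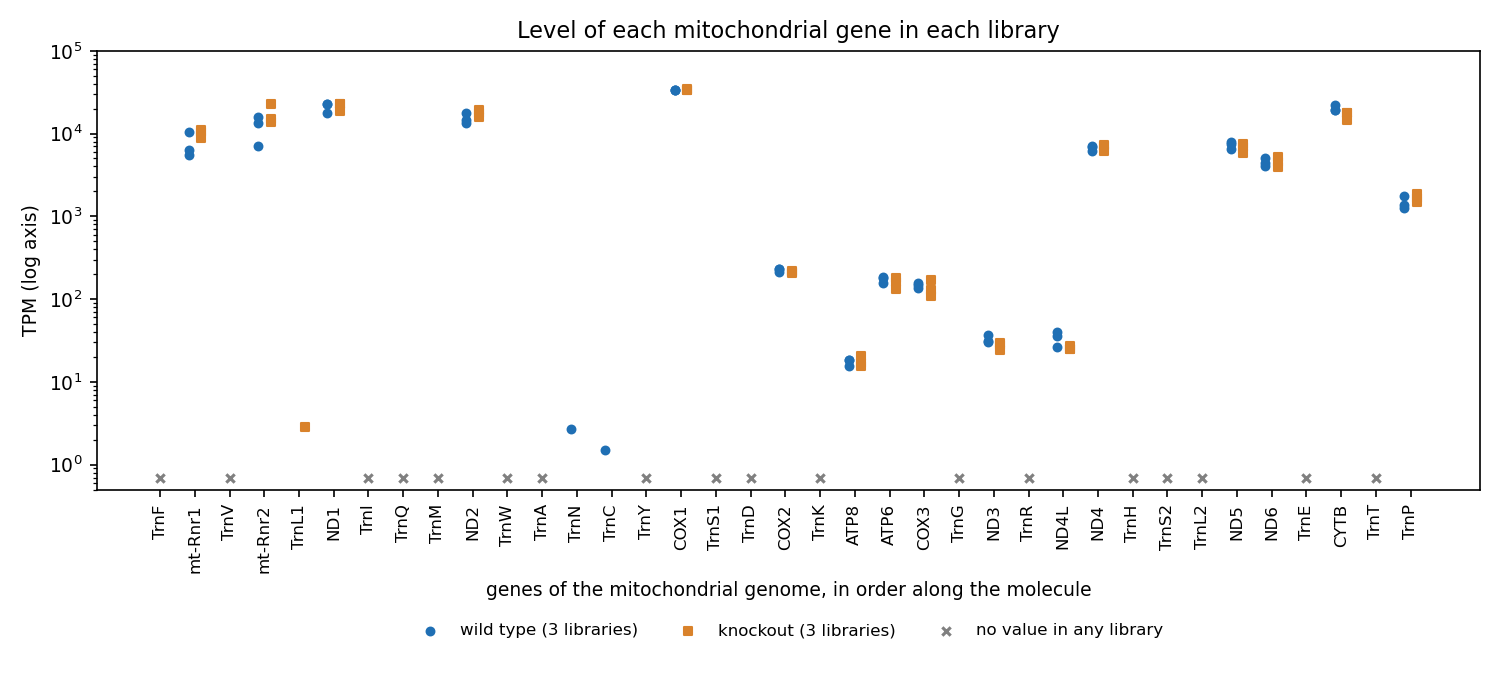
TPM (log axis) of each of the 37 genes of the mitochondrial genome, in order along the molecule, in 3 wild type (circles) and 3 knockout (squares) libraries; crosses mark the 18 genes with no value in any library. COX2 to ND4L form an unbroken run of 6 protein genes with mean levels between 17.5 and 219 TPM, while the other 7 protein genes average 4555 to 33760.4 TPM.

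Levels of the 13 protein genes spanned 1930.2-fold, with COX1 highest and ATP8 lowest. COX1 (mm10 chromosome M, 5328 to 6872, plus strand), the catalytic core of cytochrome c oxidase, averaged 33760.4 TPM over the 6 libraries. ND1 (2751 to 3707) and ND2 (3914 to 4951), membrane subunits of complex I, averaged 21234 and 16420.3 TPM. CYTB (14145 to 15288), the cytochrome b of complex III, averaged 18461 TPM. The complex I genes ND5 (11742 to 13565), ND4 (10167 to 11544) and ND6 (13552 to 14070, minus strand) followed at 6975, 6735 and 4555 TPM. Library ranges of ND1, CYTB and ND2 overlapped from each gene to the next, as did those of ND5 and ND4, whereas COX1 lay above ND1, and ND6 below ND4, in every library.

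The other 6 protein genes were far lower and lay next to each other, from COX2 to ND4L (7013 to 10173). COX2, which carries the copper site that receives electrons from cytochrome c, averaged 219 TPM. ATP6, the proton channel subunit of ATP synthase, averaged 165 TPM and COX3, a structural core subunit of complex IV, 141 TPM. ND3 and ND4L, small membrane subunits of complex I, averaged 30.1 and 29.8 TPM, and ATP8, a small ATP synthase subunit, 17.5 TPM. The gap between COX2 and the lowest of the abundant genes, ND6, was 20.8-fold. No protein gene of this stretch had a mean above 219 TPM, and none outside it had a mean below 4555 TPM.

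The stretch ends between genes that share a messenger RNA in mammals. ND4L (9877 to 10173) overlaps ND4, which starts at 10167, and both are translated from a common mRNA, yet ND4 was 172 to 281 times as high as ND4L. ATP8 (7766 to 7969) and ATP6, which starts at 7927, also share an mRNA, and ATP6 was 8.46 to 11.5 times as high as ATP8. COX1 was 143 to 164 times as high as its neighbour COX2. Mouse chromosome 1 is known to carry a long nuclear copy of mitochondrial DNA, almost identical in sequence, that spans the genes COX2 to ND4L. How reads that match more than 1 place were counted is not given in the sources used here, so the levels of these 6 genes are uncertain, and the part of the nuclear copy in them was not tested.

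Both rRNAs were abundant. The large-subunit rRNA gene mt-Rnr2 (1094 to 2675) averaged 14571 TPM and the small-subunit rRNA gene mt-Rnr1 (70 to 1024) averaged 8756 TPM. The ratio of mt-Rnr2 to mt-Rnr1 varied between libraries from 1.28 in wild type replicate 3 to 2.14 in wild type replicate 2. Whether rRNA was removed or polyadenylated RNA was selected before sequencing is not given in the sources used here, and either step would set the level of these transcripts.

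Of the 22 tRNA genes, 18 had no value in any library. TrnL1, a leucine tRNA gene, had a value of 2.87 TPM in knockout replicate 1 alone. TrnN and TrnC, for asparagine and cysteine, had values of 2.72 and 1.51 TPM in wild type replicate 2 alone. TrnP (15356 to 15422, minus strand, 67 bases) differed from all the others, with 1738, 1253 and 1388 TPM in the wild type livers (replicates 1, 2 and 3, an order kept below) and 1855, 1666 and 1499 TPM in the knockout livers. Its plus-strand neighbour TrnT, which lies between CYTB and TrnP, had no value. Missing values were common among short genes elsewhere: of 1013 nuclear genes of at most 75 bases, 157 had a value in any library and 8 in all 6, with a highest mean of 57.3 TPM (the small nucleolar RNA gene Snora20). Of 403 nuclear tRNA genes, 35 had a value in any library and 0 in all 6. Strandedness of the counting is not given in the sources used here, so reads of TrnP and ND6 cannot be told apart from reads of the opposite strand, and the ends of ND5 and ND6 overlap.

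The deposited values look quantile normalized across libraries, which bears most on the abundant genes. In each of the 6 libraries COX1 was the second most abundant gene after Alb, and its values of 33386 to 34136 TPM (highest over lowest 1.02) are those of that rank: the second highest value of a library varied by 0.833% (coefficient of variation) between libraries. Among the 20 highest genes of a library, 6 to 8 were mitochondrial. At these ranks a member's value changes by an exchange of rank with another gene: ND1 lay between rank 3 and rank 5, CYTB between 3 and 7, ND2 between 4 and 8, and mt-Rnr2 between 3 and 16. A change shared by all abundant transcripts would not be seen in such values.

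**Figure D2:**
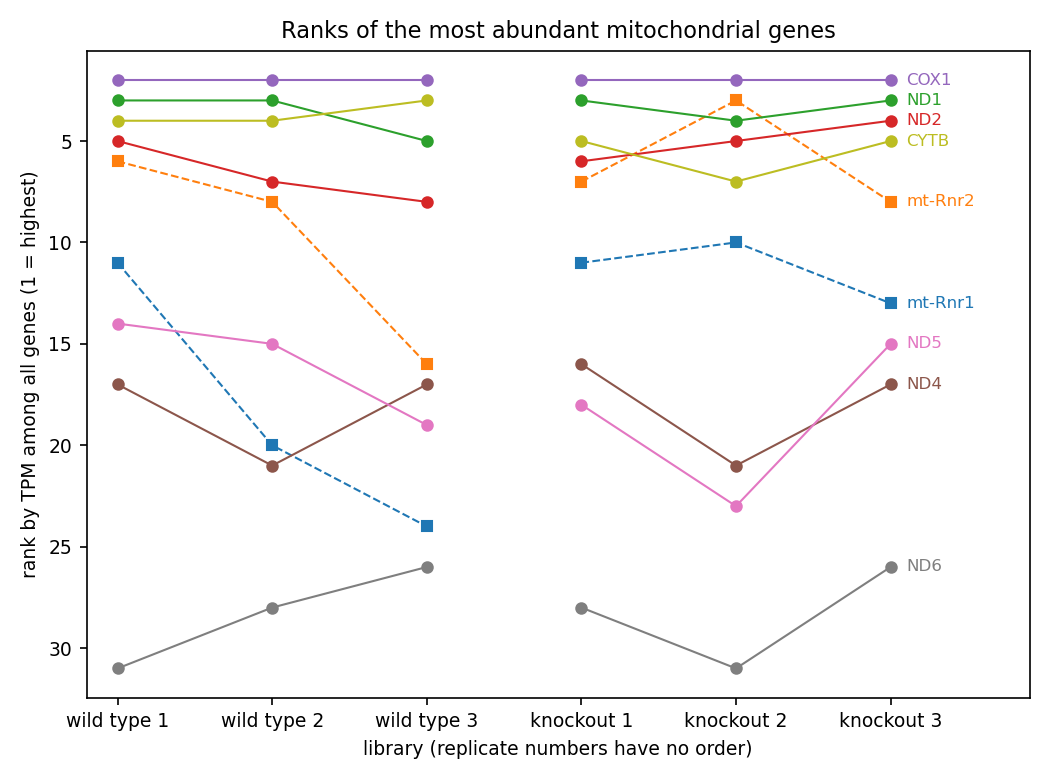
Rank by TPM among all genes (1 is the highest) of the 9 most abundant mitochondrial genes in each library; circles with solid lines are protein genes and squares with dashed lines rRNA genes, and lines only join the values of a gene within a group. COX1 holds rank 2 in all 6 libraries, while mt-Rnr1 ranges from rank 10 to rank 24 and mt-Rnr2 from rank 3 to rank 16.

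Knockout and wild type livers were then compared gene by gene in the fit over all 14155 genes. None of the 16 mitochondrial genes tested passed the threshold (limma, Benjamini-Hochberg; adjusted p from 0.625 to 0.988), against 0.00706% of all genes, and 0 had an unadjusted p under 0.05, against 8.03% of all genes (5.12% higher and 2.91% lower). Fitted differences were above 0 for 9 members and below 0 for 7 (4 and 12 after median scaling, 6 and 8 after quantile normalization, which puts the other 2 at 0), where 57.4% of all genes lay above 0 and 42.6% below. The median log2 difference of the 16 was 0.01, beside 0.04 over all genes tested. Knockout values lay wholly below the wild type values for 2 members and wholly above them for 0, where 4.38% and 8.94% of all genes did so. In bulk tissue such as this, fewer cells of a type and less RNA per cell cannot be told apart.

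**Figure D3:**
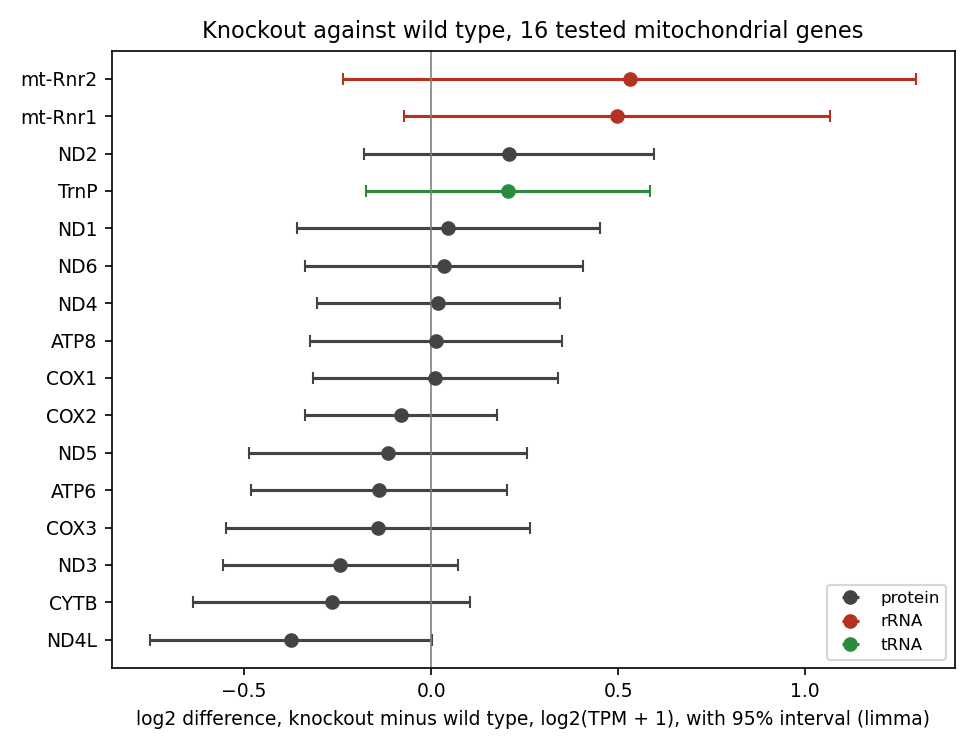
Log2 difference, knockout minus wild type, on the log2(TPM + 1) scale for the 16 mitochondrial genes tested, with 95% intervals from limma (n = 3 libraries per group). Every interval includes 0; mt-Rnr2 and mt-Rnr1 have the highest estimates (0.53 and 0.50) and ND4L the lowest (-0.38).

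The rRNAs had the largest differences among the members, and their spread between libraries was also the largest. Wild type livers had 10372, 6299 and 5544 TPM of mt-Rnr1, against 10461, 10984 and 8876 TPM in knockout livers. Knockout replicates 1 and 2 lay above the highest wild type library, and wild type replicates 2 and 3 lay below all the others. Group means were 7405 ± 2597 and 10107 ± 1097 TPM (SD, n = 3 each), a log2 difference of 0.50 (SE 0.24, 95% interval -0.07 to 1.07; limma adjusted p 0.683).

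mt-Rnr2 had 15869.9, 13453 and 7092 TPM in wild type livers and 14902, 22512 and 13598 TPM in knockout livers. Wild type replicate 3 was low and knockout replicate 2 high, and the other 4 libraries lay together. Group means were 12138 ± 4534 and 17004 ± 4815 TPM (SD, n = 3 each), a log2 difference of 0.53 (SE 0.33, 95% interval -0.24 to 1.30; limma adjusted p 0.738). That difference was 0.18 when wild type replicate 3 was left out and 0.31 when knockout replicate 2 was, while for mt-Rnr1 it was 0.32 without wild type replicate 3 and 0.77 without wild type replicate 1. On the log2 scale the spread within groups of mt-Rnr2 (SD 0.51) lay above that of 93.3% of the genes tested and that of mt-Rnr1 (0.36) above 82.6%, where the median gene had 0.21.

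Among the protein genes, CYTB and ND3 were lower in all 3 knockout libraries than in any wild type library, and neither passed the test. CYTB had 19070.2, 18981 and 22408 TPM in wild type livers and 17815, 14733 and 17757 TPM in knockout livers. Its group means were 20153 ± 1953 and 16768 ± 1763 TPM (SD, n = 3 each), a log2 difference of -0.27 (SE 0.16, 95% interval -0.64 to 0.10; limma adjusted p 0.723), or -0.18 without knockout replicate 2. The closest libraries of the groups differed by less than the spread within either group.

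ND3, one of the low genes, had 36.99, 30.1 and 31.0 TPM in wild type livers and 27.9, 29.8 and 24.6 TPM in knockout livers, and the log2 difference was -0.24 (SE 0.14; limma adjusted p 0.705), or -0.15 without wild type replicate 1. Its groups were separated by the step from 30.1 to 29.8 TPM. ND4L had the smallest p of the members, with 39.6, 35.7 and 26.5 TPM in wild type and 26.8, 25.0 and 24.9 TPM in knockout livers. Wild type replicate 3 lay within the knockout values, which were close to each other. Means were 33.9 ± 6.71 and 25.6 ± 1.08 TPM (SD, n = 3 each), a log2 difference of -0.38 (SE 0.16, limma unadjusted p 0.0507, limma adjusted p 0.625). That difference was -0.26 without wild type replicate 1 and -0.54 without wild type replicate 3. TrnP had a log2 difference of 0.20 (SE 0.16; limma adjusted p 0.789), with groups that overlapped, and 0.10 without wild type replicate 2 or 0.34 without wild type replicate 1.

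**Figure D4:**
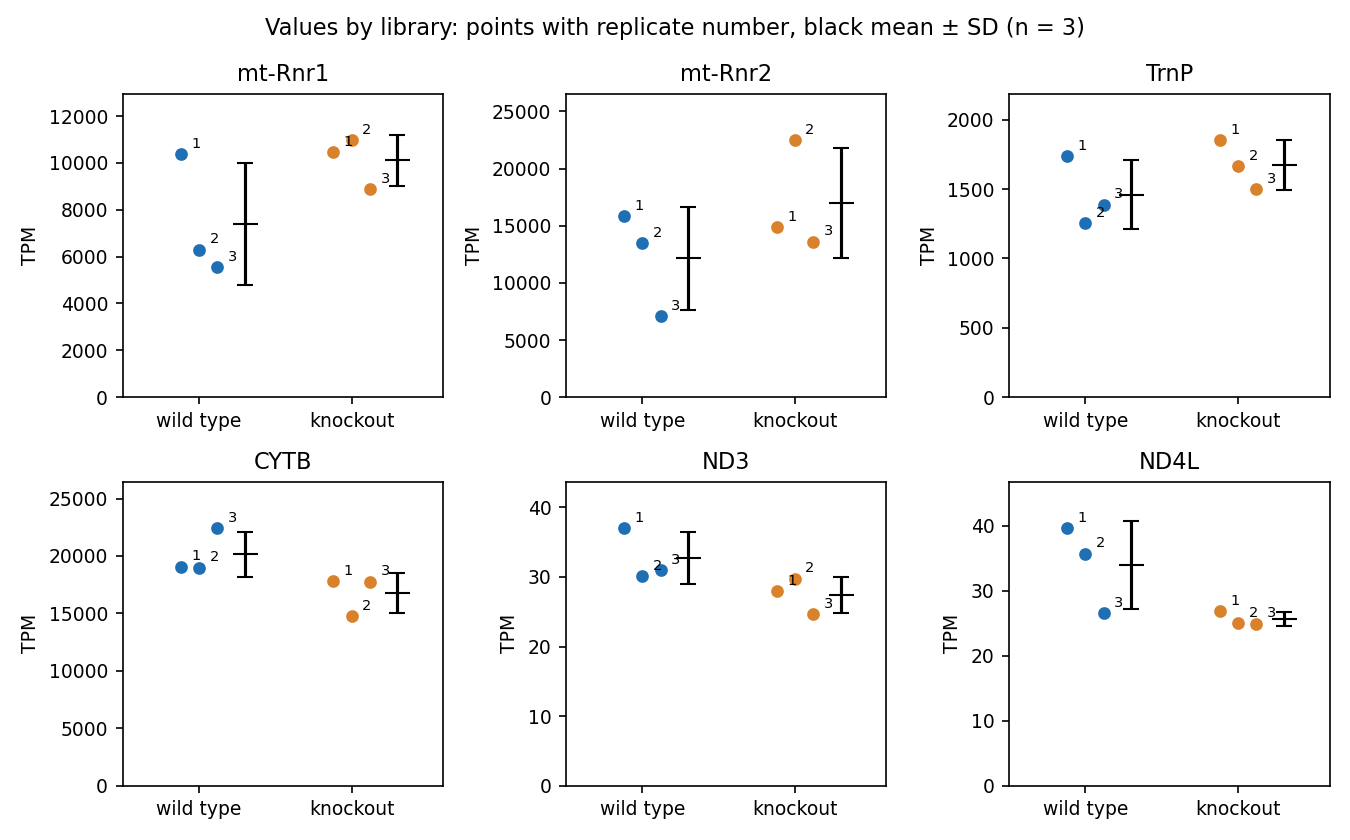
TPM of mt-Rnr1, mt-Rnr2, TrnP, CYTB, ND3 and ND4L in each library (points with replicate numbers; black bars are mean ± SD, n = 3 per group; every axis starts at 0). Groups do not overlap for CYTB and ND3, and wild type replicate 3 is the lowest library for both rRNAs and the highest for CYTB.

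The other 10 protein genes had overlapping groups. COX1 had 33862, 33640.3 and 33386 TPM in wild type livers against 34136, 33557 and 33981 TPM in knockout livers, which are the values of its fixed rank and carry no information on the groups. ND1 had 22699, 22563 and 17538 TPM against 22867, 18965 and 22772 TPM (log2 0.05, SE 0.17). ND2 had the highest estimate of the protein genes, with 17714, 14766 and 13346 TPM against 15975, 17601 and 19120.5 TPM (log2 0.21, SE 0.17; 0.12 without wild type replicate 3 and 0.32 without wild type replicate 1). In both complex I genes wild type replicate 3 was the lowest library. ND4 had 6992, 6151 and 6917 TPM against 7199, 6142 and 7007 TPM (log2 0.02, SE 0.14). ND5 had 7887, 7409 and 6443 TPM against 6831, 5772 and 7507 TPM (log2 -0.12, SE 0.16; -0.012 without knockout replicate 2). ND6 had 4058, 4400.4 and 5032 TPM against 4592, 3990.4 and 5259 TPM (log2 0.03, SE 0.16). The groups were interleaved in all of these.

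Among the low genes, COX2 had 231, 211 and 233 TPM in wild type livers against 219, 205 and 214 TPM in knockout livers (log2 -0.08, SE 0.11; -0.05 when knockout replicate 2 was left out, -0.13 when wild type replicate 2 was). ATP6 had 178, 156 and 183 TPM against 180.4, 133 and 159 TPM (log2 -0.14, SE 0.15; -0.023 without knockout replicate 2), and ATP8 had 15.5, 18.5 and 18.2 TPM against 20.4, 15.5 and 16.9 TPM (log2 0.01, SE 0.14). Knockout replicate 2 was the lowest of the 6 libraries for 8 of the 13 protein genes (COX2, ATP8, ATP6, COX3, ND4, ND5, ND6 and CYTB) and the highest for both rRNAs. COX3 had 135, 158 and 149 TPM against 128, 109 and 169 TPM (log2 -0.14, SE 0.18). The estimates of ND1, ND4, ND6, ATP8 and COX1, all near 0, turned negative after median scaling. The 95% intervals of these 10 genes reached from -0.55 for COX3 to 0.60 for ND2, so changes within that range are not shown to be absent.

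Summed levels were compared by class of gene. Protein genes summed to 112918, 108521 and 105710.0 TPM in wild type and to 110018, 101277 and 114011 TPM in knockout livers, a difference in mean log2 of -0.01 (exact permutation test, two-sided, p = 1; after median scaling -0.06, p = 0.1, the smallest p possible). In the order of the unscaled sums, wild type and knockout libraries were mixed. After median scaling every knockout sum lay below every wild type sum. COX1 alone contributed a nearly fixed amount before that scaling. The 2 rRNAs summed to 26242, 19752 and 12636 TPM in wild type and to 25363, 33496 and 22474 TPM in knockout livers, and the log2 difference was 0.51 (exact permutation p = 0.3). Without wild type replicate 3 that difference was 0.23, and without wild type replicate 1 it was 0.76. The tRNA sum, made almost wholly of TrnP, differed by 0.20 (exact permutation p = 0.3), and by 0.02 without wild type replicate 2 and knockout replicate 1 together. With 3 against 3 libraries no p below 0.1 can be reached, and after adjustment over the 6 sums and ratios tested the smallest p was 0.6.

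Ratios within the mitochondrial transcripts do not change with a factor common to a whole library. Quantile normalization, which the values appear to have had, is not such a factor, since it sets each value by its rank. rRNA over protein gene TPM was 0.232, 0.182 and 0.120 in wild type and 0.231, 0.331 and 0.197 in the knockout (log2 difference 0.52, exact permutation p = 0.3). Wild type replicate 3 had the lowest ratio and knockout replicate 2 the highest, and the difference was 0.26 without the former and 0.31 without the latter. ND6, the sole protein gene of its strand, was 3.73%, 4.23% and 4.998% of the sum of the other 12 in wild type and 4.36%, 4.10% and 4.84% in the knockout (log2 difference 0.04, exact permutation p = 0.9). Protein gene TPM over the TPM of all genes outside the mitochondrial genome differed by -0.02 (exact permutation p = 0.7), with group means of 0.126 ± 0.00419 and 0.125 ± 0.00609 (SD, n = 3 each).

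Some further ratios were picked after their values were seen and are given with no test. CYTB over ND6, neighbours on opposite strands, was the one of 8 ratios between members whose groups did not overlap. It was 4.70, 4.31 and 4.45 in wild type and 3.88, 3.69 and 3.38 in the knockout. The 6 low protein genes made up 0.563%, 0.561% and 0.606% of the protein gene sum in wild type and 0.548%, 0.510% and 0.534% in the knockout.

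Nuclear genes for subunits of the same complexes were set beside the mitochondrial ones. All 79 from a list of complexes I to V were tested and 0 passed the threshold (limma; 0 with an unadjusted p under 0.05, against 8.03% of all genes). Of them 51 lay above 0 and 28 below, with a median log2 difference of 0.02. The 13 mitochondrial genes had 6 above 0 and 7 below, with a median of -0.08; the difference between these medians was not tested. In complex I the nuclear median was 0.03 over 37 genes and the mitochondrial median 0.02 over 7 genes. The nearest to the threshold there were Ndufab1, the acyl carrier protein of complex I (135 ± 2.75 against 158 ± 13.1 TPM, SD, n = 3 each; log2 0.23, SE 0.12), Ndufa13 (-0.19, SE 0.13) and Ndufb6 (0.17, SE 0.13).

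In complex III the iron-sulfur protein gene Uqcrfs1 (log2 0.18, SE 0.12) and Uqcrb (0.23, SE 0.14) had the smallest p-values, beside -0.27 for CYTB, and Cyc1, cytochrome c1, had 0.09 (SE 0.12). Cox7a2l, which helps to join complexes III and IV (-0.30, SE 0.19), and Cox5a (0.15, SE 0.12) had the smallest p-values in complex IV, and Atp5k (0.20, SE 0.11) and the ATP synthase inhibitor Atpif1 (0.21, SE 0.13) in complex V. In complex II, which has no mitochondrially encoded subunit, 3 of 4 genes lay above 0 and Sdhd had the smallest p (log2 0.18, SE 0.13). Levels of the listed nuclear genes averaged 15.8 to 1065 TPM, with a median of 208 TPM. The lowest was the inhibitor Atpif1, and the next, Ndufa11 of complex I, averaged 32.3 TPM. Of the low mitochondrial protein genes, COX2, ATP6 and COX3 lay between 32.3 and 1065 TPM. ND3, ND4L and ATP8 lay below every listed nuclear gene but Atpif1, and the 7 abundant genes lay above them all.

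**Figure D5:**
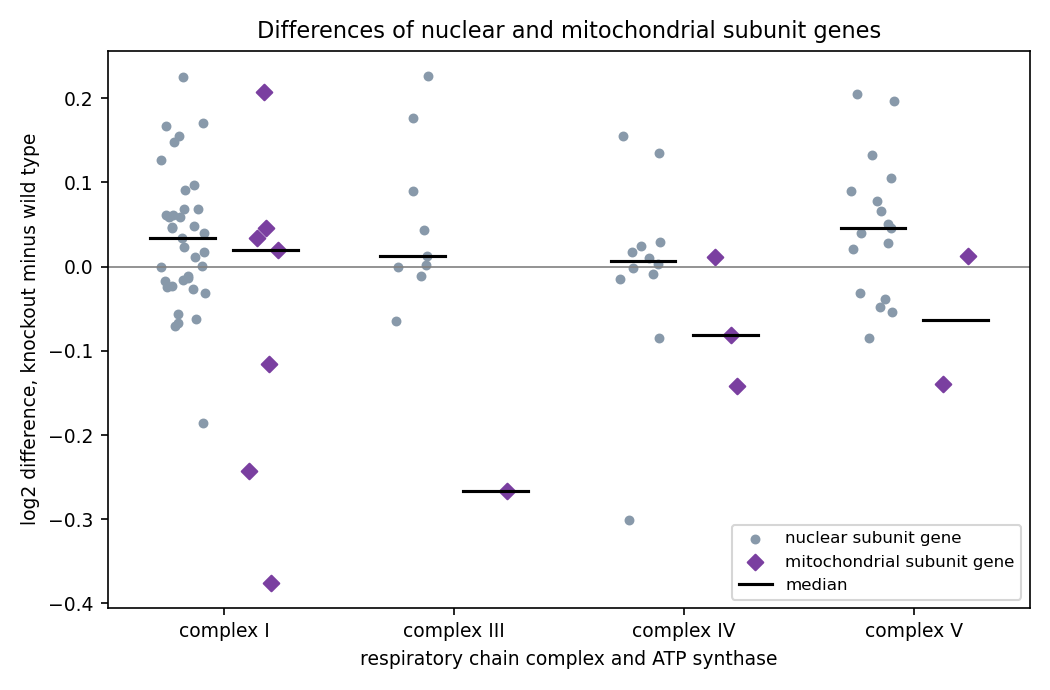
Log2 difference, knockout minus wild type, of nuclear subunit genes (grey dots) and mitochondrial subunit genes (purple diamonds) of complexes I, III, IV and V; black bars are medians. Nuclear medians lie between 0.01 and 0.05; CYTB, at -0.27, lies below all 9 nuclear genes of complex III.

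Nuclear genes that act on mitochondrial DNA and RNA were also counted by function, and 0 of them passed the threshold (limma). Of 9 transcription genes, 8 lay below 0 and 1 above, with a median log2 difference of -0.11 and 0 with an unadjusted p under 0.05. Tfam, which packages mitochondrial DNA and activates its promoters, had 31.4, 27.4 and 26.9 TPM in wild type livers and 29.1, 27.4 and 28.7 TPM in knockout livers. Polrmt, the mitochondrial RNA polymerase, had a log2 difference of -0.08 (SE 0.15). Tfb1m, an rRNA methyltransferase (12.8 ± 1.84 against 10.1 ± 1.63 TPM, SD, n = 3 each; -0.32, SE 0.16), and Mterf4 (-0.28, SE 0.17) had the smallest p-values, followed by Mterf2 (-0.22, SE 0.21).

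Of 32 genes of mitochondrial RNA processing and stability, 18 lay above 0 and 14 below (median 0.01; 0 with an unadjusted p under 0.05). In each knockout library 3 of the 32 lay above all wild type values and 2 below, as did 8.94% and 4.38% of all genes. The poly(A) polymerase Mtpap was among the 3 and had the smallest p (7.02 ± 0.331 against 8.63 ± 0.686 TPM, SD, n = 3 each, log2 0.26, SE 0.12). Grsf1, an RNA-binding protein of mitochondrial RNA granules (0.28, SE 0.13), and Nsun3, which modifies the methionine tRNA (-0.32, SE 0.16), followed. Nsun3 was among the 2 that lay below all wild type values. Lrpprc, which stabilizes mitochondrial mRNAs, differed by 0.02 (SE 0.12).

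Of 20 replication and maintenance genes, 8 lay above 0 and 12 below (median -0.05), and 3 had an unadjusted p under 0.05, against 8.03% of all genes. These were the ADP/ATP carrier Slc25a4 (8.83 ± 1.23 against 12.4 ± 2.12 TPM, SD, n = 3 each; log2 0.45, SE 0.17), the pyrimidine nucleotide carrier Slc25a33 (-0.74, SE 0.29) and the primase-polymerase Primpol (0.41, SE 0.17). Groups overlapped for Slc25a33. In each knockout library 3 of the 20 lay above all wild type values and 3 below, where 8.94% and 4.38% of all genes did so. Their summed level was 347 to 371 TPM in wild type and 317 to 337 TPM in knockout livers, and was not tested. Mitochondrial tRNA synthetases (10 of 17 above 0, median 0.03) and translation factors (7 of 14, median -0.05) had 0 members with an unadjusted p under 0.05. Vars2 (0.25, SE 0.16), Cars2 (0.14, SE 0.13) and Nars2 (-0.19, SE 0.19) had the smallest p-values among the synthetases, which charge tRNAs with valine, cysteine and asparagine. Mtfmt, which formylates the initiator tRNA (0.24, SE 0.13), the elongation factor Tsfm (0.31, SE 0.21) and Taco1, an activator of COX1 translation (-0.36, SE 0.26), did so among the translation factors.

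Of 13 regulators of mitochondrial biogenesis 12 were tested, 7 above 0 and 5 below (median 0.04), and 2 had an unadjusted p under 0.05, against 8.03% of all genes. Ppara, the fatty acid-sensing nuclear receptor, had 105, 101 and 66.0 TPM in wild type livers and 55.2, 67.3 and 44.9 TPM in knockout livers (log2 -0.68, SE 0.22; unadjusted p 0.0159, limma adjusted p 0.542). Its groups overlapped, as knockout replicate 2 lay above wild type replicate 3. In each knockout library 3 of the 12 lay above all wild type values and 0 below, where 8.94% and 4.38% of all genes did so. Esrrg, an orphan nuclear receptor of oxidative tissues, was low and among these 3 (1.29 ± 0.313 against 2.10 ± 0.432 TPM, SD, n = 3 each, log2 0.44, SE 0.18). The deacetylase Sirt3 differed by 0.22 (SE 0.12). Ppargc1a, a coactivator of mitochondrial genes, differed by 0.06 (SE 0.18).

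Summed marker levels of endothelial cells and of neutrophils lay apart between the groups. Those of Kupffer cells and monocytes and of stellate cells overlapped. Summed levels of 8 endothelial markers were 103 to 134 TPM in wild type and 158 to 203 TPM in knockout livers, with all 8 above the wild type values in each knockout library, as were 8.94% of all genes. Those of 8 Kupffer cell and monocyte markers were 87.2 to 198 TPM and 162 to 367 TPM, and those of 8 stellate cell markers 248 to 307 TPM and 292 to 369 TPM, with 2 markers of each list above all wild type values. Log2 differences of all 8 Kupffer cell and monocyte markers lay above 0 (median 0.71, 3 with a limma unadjusted p under 0.05). So did those of all 8 stellate cell markers (median 0.24, 2 under 0.05) and all 8 endothelial markers (median 0.49, 7 under 0.05). Of all genes 57.4% lay above 0 and 8.03% had such a p. Neutrophil markers summed to 20.9 to 50.1 TPM in wild type and 15.8 to 20.6 TPM in knockout livers, with 4 of 8 tested and 1 of them below all wild type values, as were 4.38% of all genes. All 4 tested lay below 0, as did 42.6% of all genes, and 3 had a limma unadjusted p under 0.05. Hepatocyte markers, 6 above 0 and 6 below, summed to 29400.5 to 37052 TPM and 29915 to 35192 TPM. None of the markers passed the threshold over all genes (limma), and every marker had a value in at least 1 library. The neutrophil markers Ly6g and Mpo had a value in 1 wild type library each (wild type means 0.035 and 0.013 TPM) and in no knockout library. The part of the listed cell types in the mitochondrial values was not tested. Of the remaining lists, cholangiocyte markers had 5 of 5 tested above 0 (45.5 to 80.7 TPM against 49.1 to 75.9 TPM), lymphocyte markers 5 of 6 (4.94 to 9.46 TPM against 7.65 to 10.1 TPM) and red blood cell markers 5 of 5 (368 to 436 TPM against 344 to 608 TPM).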

How the data were processed

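Per the labels' protocols, frozen liver was taken up in TRIzol and its RNA sequenced by HiSeq. The submitters' processing notes name FastQC, Trimmomatic and the build mm10; the sources used here give no aligner, quantification tool or annotation. The deposited table names its columns TPM, but as deposited they hold log2 values: these reach from -8.88 to 16.59, their antilogarithms sum to 983800 to 1018120 per library, and the sorted columns nearly coincide, as quantile normalization leaves them; both were read from the values. Gene lengths are those of the deposited table.

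Values were back-transformed to TPM, with a blank taken as 0. Tests used log2(TPM + 1), a pseudocount that understates changes of low genes, for 14155 genes with a mean of at least 0.5 TPM. The test was limma 3.58.1, run in R 4.3.3, with group as its sole term and an abundance trend in eBayes (two-sided; 4 residual and 3.65 prior degrees of freedom) with Benjamini-Hochberg adjustment over all genes and a threshold of 0.05. Single sums and ratios used an exact two-sided permutation test of the mean log2 values. Alternatives were other pseudocounts (0.1, 5), filters (none, 5 TPM), scalings, the deposited log2 values as they stand, a replicate block and libraries left out; in such fits a group of 2 is assumed to vary like the rest. The labels do not say that each replicate is a separate mouse, so the spread behind each p-value, that among these libraries, may be technical. The limma fit was tested on simulated data.

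Members were taken by position on the mitochondrial chromosome, since only the rRNA genes carry the prefix mt-; scaling to other genes uses all genes outside it. All mitochondrial protein and rRNA genes, tRNA genes with values, and in each list up to 3 genes of smallest p were to be named. In the lists of cell type markers the genes of smallest p are not named, only Ly6g and Mpo, which were not tested. Tfam, Polrmt, Lrpprc and Ppargc1a were added after their values were seen. Members and lists were chosen with earlier results of these data known. Of 257 list genes, 250 were matched, 5 through another symbol; the 7 gene models of nuclear mitochondrial copies on chromosome 1 were not analysed here. No sequence is shown.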

Additional observations from a re-analysis of the deposited data

How the results depend on the processing

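The count of mitochondrial genes past the threshold was 0 under all alternatives run, with a smallest adjusted p of 0.360 (without wild type replicate 3). ND4L had an unadjusted p under 0.05 in 7 of the 15 alternatives and mt-Rnr1 in 1. The count over all genes was 0 rather than 1 with the deposited log2 values as they stand, no filter, a pseudocount of 5 or the replicate block, and ranged from 0 to 2 when single libraries were left out. Genes with an unadjusted p under 0.05 split into 725 higher and 412 lower, 531 and 558 after median scaling, and 570 and 537 after quantile normalization. After median scaling the log2 differences of ND1 (-0.0063), COX1 (-0.041), ATP8 (-0.037), ND4 (-0.032) and ND6 (-0.018) turned negative, and after quantile normalization that of ATP8 (-0.012), while COX1 and ND6 came to 0 (within 1e-09). Without wild type replicate 2 and knockout replicate 1 together, ATP8 (-0.05) and ND4 (-0.084) did so. With single libraries left out, differences ranged from -0.077 to 0.135 for ND1, -0.094 to 0.095 for ATP8, -0.31 to 0.0017 for COX3, -0.040 to 0.089 for ND4 and -0.065 to 0.134 for ND6. Leaving out 1 library also moved ATP6 (-0.24 to -0.02), ND5 (-0.20 to -0.01), COX2 (-0.13 to -0.05), ND2 (0.12 to 0.32), ND3 (-0.30 to -0.15), CYTB (-0.31 to -0.18) and TrnP (0.10 to 0.34) by over 1.5 times. Those of the protein gene sum ranged from -0.046 to 0.039 (-0.061 after median scaling), of the same sum over genes outside the mitochondrial genome from -0.052 to 0.019, and of the ND6 ratio from -0.056 to 0.156; the cause was not tested. Of 240 comparisons for single genes 222 kept their direction and side of the threshold, as did 69 of 84 for counts, sums and ratios; the exceptions are those given here. Deviations from the group means of same-numbered libraries correlated at r -0.261, -0.265 and -0.0494. Within a group of 3 these deviations sum to 0, so the values cannot settle whether the replicate numbers pair the libraries. The replicate block left 0 mitochondrial genes and 0 of all genes past the threshold, with 816 rather than 1137 genes at an unadjusted p under 0.05. Depth is unknown, and 3 libraries per group limit the precision.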
